A study of Rattus norvegicus with 12 samples.

Results

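The potassium channel genes described here were measured in INS-1 832/3, an insulin-secreting line grown from a rat beta-cell tumour. The members were all genes of the count table whose symbol is Kcn followed by a letter and a digit, with the pore-forming subunit of the ATP-sensitive channel, Kcnj11, left out, which gave 80 of 31368 genes. By this rule the calcium- and voltage-activated channel gene Kcnma1 and auxiliary genes with a second letter (Kcnab, Kcnip and Kcnmb) are not members. The 4 groups had 3 libraries each: untreated cells (control), cells given urolithin B at 50 uM for 12 h, cells challenged with islet amyloid polypeptide (IAPP) at 2 uM for 24 h, and cells given urolithin B for 12 h and then IAPP for 24 h. Urolithin B is a gut microbial metabolite of ellagitannins, and IAPP is a peptide that beta cells release with insulin and that can form amyloid. All cells were wild type by label and were grown in RPMI with serum. They are a tumour line and not primary islets, and the labels give neither the species of the IAPP sequence nor whether cells with urolithin B alone were kept for the further time of the challenge.

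Potassium channels let potassium leave the cell and so hold or return the membrane to a negative potential. In beta cells, closure of the ATP-sensitive channel after glucose uptake depolarises the membrane, calcium enters and insulin is released, while voltage-gated and calcium-activated potassium channels end each action potential. Shaker, Shab, Shaw and Shal genes (Kcna, Kcnb, Kcnc and Kcnd) encode voltage-gated pores, Kcnj genes encode inward rectifiers, and Kcnk genes encode tandem-pore-domain channels that carry background current.

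A small set of these genes differed between IAPP and control cells when libraries of the same replicate number were compared. Promoters are shown for the 4 members with the smallest p without a block among those that passed the IAPP test with this replicate block and had 1 entry in the RefSeq promoter table, so that the regulatory sequence can be read beside the values. Kcnk16, a background channel of islet cells, was lower after IAPP, and Kcnh1, Kcnd3 and Kcnj6 were higher. Each line gives the 250 bases before the annotated start in the GRCr8 assembly, 5′ to 3′, in lower case, with the GC box in capitals (bases -40 to -35 in Kcnh1, -104 to -99 in Kcnd3 and -69 to -64 in Kcnj6, counted back from the start). They lie at chr15:4091441-4091690 on the plus strand (Kcnk16), chr13:106252966-106253215 on the plus strand (Kcnh1), chr2:195626066-195626315 on the plus strand (Kcnd3) and chr11:47778349-47778598 on the minus strand (Kcnj6).
Kcnk16: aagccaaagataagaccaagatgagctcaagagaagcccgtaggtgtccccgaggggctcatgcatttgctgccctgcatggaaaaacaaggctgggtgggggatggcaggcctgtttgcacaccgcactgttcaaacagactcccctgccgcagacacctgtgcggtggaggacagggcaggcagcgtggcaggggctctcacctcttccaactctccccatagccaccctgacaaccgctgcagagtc
Kcnh1: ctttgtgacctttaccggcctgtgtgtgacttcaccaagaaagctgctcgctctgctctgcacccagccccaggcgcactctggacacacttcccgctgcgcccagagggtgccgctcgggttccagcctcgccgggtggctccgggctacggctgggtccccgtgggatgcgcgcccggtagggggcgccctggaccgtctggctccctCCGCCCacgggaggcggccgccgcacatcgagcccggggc
Kcnd3: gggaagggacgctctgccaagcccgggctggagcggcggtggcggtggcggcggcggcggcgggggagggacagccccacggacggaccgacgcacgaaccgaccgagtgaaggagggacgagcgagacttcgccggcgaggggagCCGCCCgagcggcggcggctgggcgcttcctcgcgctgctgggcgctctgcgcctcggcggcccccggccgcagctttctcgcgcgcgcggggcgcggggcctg
Kcnj6: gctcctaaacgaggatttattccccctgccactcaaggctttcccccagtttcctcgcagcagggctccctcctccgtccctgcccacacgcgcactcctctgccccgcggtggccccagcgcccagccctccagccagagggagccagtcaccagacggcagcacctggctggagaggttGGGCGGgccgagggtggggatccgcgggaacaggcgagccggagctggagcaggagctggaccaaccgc

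Of the 80 members, 52 had a promoter entry, and so did 11 of the 13 members that passed with the block in IAPP against control or in urolithin B + IAPP against IAPP. For a gene with several entries only the window of the first listed was searched and counted. The GC box (GGGCGG, either strand) was found in the windows of Kcnh1, Kcnd3 and Kcnj6 and not in that of Kcnk16. It was in 26 of the 52 member windows, in 5 of the 11, and in 32.4% of 27457 RefSeq promoter windows of the same length. The TATA box (TATAAA, 13.1% of all windows), the E box (CACGTG, 5.8%), the cAMP response element (TGACGTCA, 1.7%), the Maf core (TGCTGAC, 3.5%) and the p53 half-site (6.6%) were searched on both strands too, and none of these letters stood in the windows of the 11 genes. No spelled motif contains another, and the ends of the Maf core and the cAMP response element can overlap by the letters TGAC. Over the 52 member windows they were found in 2, 2, 0, 3 and 2 in that order. The median GC content was 60.8% in the member windows and 52.0% in all windows.

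Gene expression was read near the transcript end with a 3prime kit, in 4828003 to 6681455 counts per library. Levels are given as CPM, counts scaled to 1000000 per library after TMM scaling, and they are not divided by gene length because the kit reads transcript ends. Levels of different genes still depend on how well each end is annotated. The 4 replicate 1 libraries stood apart, with 22139 to 22615 genes detected against 19529 to 20201 in the other 8. Beta-cell markers summed to 10800 to 28300 CPM per library, with Neurod1 and G6pc2 at 0, and delta, pancreatic polypeptide and acinar cell markers to at most 3.02 CPM. Alpha-cell markers summed to 38.2 to 124 CPM in control and 47.0 to 155 CPM in IAPP cells, and fibroblast markers to 12.2 to 28.6 and 6.83 to 62.1 CPM. In urolithin B and urolithin B + IAPP cells alpha-cell markers summed to 65.8 to 230 and 68.3 to 236 CPM. Fibroblast markers summed to 2.33 to 14.1 and 2.05 to 37.8 CPM in these 2 groups. Over the 12 libraries neuronal markers summed to 124 to 195 CPM, ductal to 14.1 to 30.3, endothelial to 4.78 to 17 and immune to 0.171 to 10.3 CPM. Sst, Ppy, Cpa1, Prss1 and Col1a2 were at 0 in all libraries. Their part in the results was not tested.

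The line expressed a broad set of potassium channel genes. Of the 80 members, 74 (92.5%) had at least 1 count, against 78.5% of all genes, and 55 passed the filter on low counts that precedes testing. Only Kcnb2 and Kcnj6 had a mean of 100 CPM or more over the 12 libraries, 29 members lay between 10 and 100 CPM, 24 between 1 and 10 CPM and 19 under 1 CPM. The 6 members at 0 in all libraries were the Shaker genes Kcna1, Kcna3 and Kcna5, the auxiliary genes Kcne3 and Kcne5, and the inward rectifier Kcnj13. For a gene at 0, a floor of 3 counts over the 12 libraries allows a level of up to 0.0457 CPM, which covers counting error only.

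Kcnb2, a Shab-type delayed rectifier, was the most abundant member. It was at 644, 604 and 672 CPM in control, 599, 903 and 528 CPM in urolithin B, 394, 630 and 731 CPM in IAPP and 584, 540 and 532 CPM in urolithin B + IAPP cells. The 4 groups overlapped except that all 3 urolithin B + IAPP libraries lay below all 3 control libraries, and the fold change there, -0.21 ± 0.23 on the log2 scale, did not pass (edgeR adjusted p = 1.00). It took 22.8% to 44.8% of all counts of the 80 members.

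Other abundant members were Kcnq5, which encodes an M-type channel that opens near the resting potential (mean 75.1 CPM), and Kcnd2, a Shal gene of fast inactivating A-type current (64.5 CPM). Kcnk1 (52.95 CPM) and Kcnk16 (52.8 CPM) were the highest background channel genes. Kcnh6 (47.1 CPM) and Kcnh8 (39.7 CPM) of the ether-a-go-go family and Kcnc1, a Shaw-type fast delayed rectifier (39.1 CPM), followed. Summed over the members of a family, the ether-a-go-go genes reached 200 ± 25.9 CPM and the background channel genes 185 ± 14.1 CPM in control cells (SD, n = 3). The M-type family reached 149 ± 38.9 CPM there, the Shaw genes 141 ± 10.5 CPM and the inward rectifiers 141 ± 9.17 CPM. The Shab genes, which include Kcnb2, are not among these sums. The inward rectifier sum leaves out Kcnj11, which alone was at 154 ± 14.1 CPM in control cells.

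**Figure D1:**
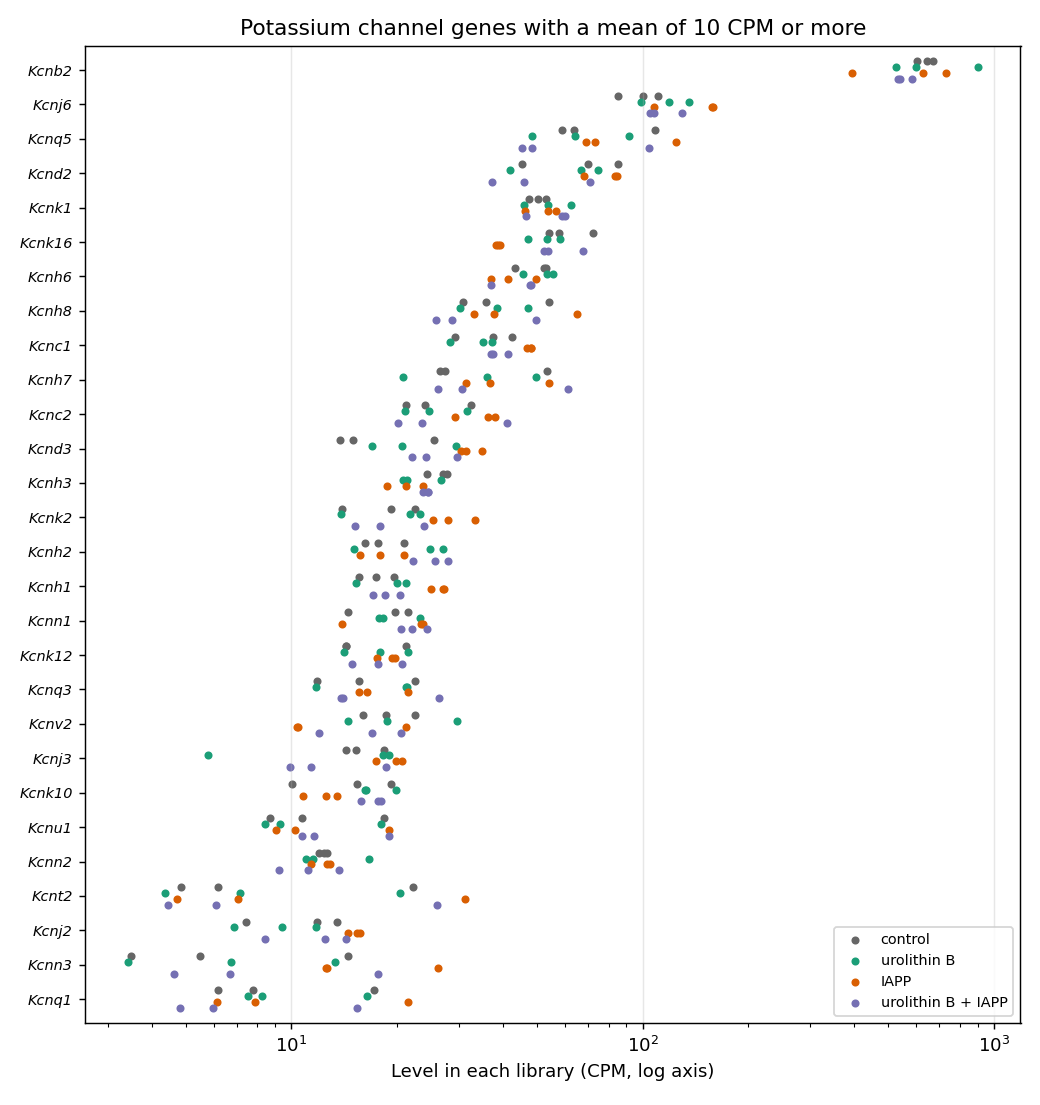
Level of 28 of the 31 potassium channel genes with a mean of 10 CPM or more; each point is 1 library, the horizontal axis is CPM on a log scale and colour marks the group. Kcnb2 stood above all other genes drawn in every library, and the 3 IAPP points of Kcnk16 lay to the left of its other points.

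Many members were higher in replicate 1 than elsewhere. In the 4 replicate 1 libraries 68 to 70 members were detected, against 59 to 65 in the other 8. All 4 replicate 1 libraries lay above the other 8 in 15 of the 55 tested members, against 20.3% of all tested genes, and below them in 2, Kcnk1 among them, against 9.47%. The median ratio of replicate 1 to the rest was 1.35 over the tested members and 0.996 over all tested genes. Kcnt2, a sodium-activated channel gene, had a mean of 24.9 CPM in replicate 1 and 5.60 CPM in the others, and Kcnq1 of 17.6 and 6.82 CPM. The silent subunit gene Kcns2 had 64 counts in replicate 1 and 0 elsewhere, so it was tested through those libraries alone. Kcns1 also reached the level of the low-count filter only in replicate 1 libraries. When replicate 1 was left out, the filter kept 49 members. What set replicate 1 apart is not given in the labels. The replicate number was also fitted as a block, which compares libraries of the same number, and these blocked values stand beside those without the block. With replicate 1 left out, libraries of the same number did not correlate (r from -0.0581 to 0.0213). The numbers are thus shown to pair libraries only as replicate 1 against the rest.

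**Figure D2:**
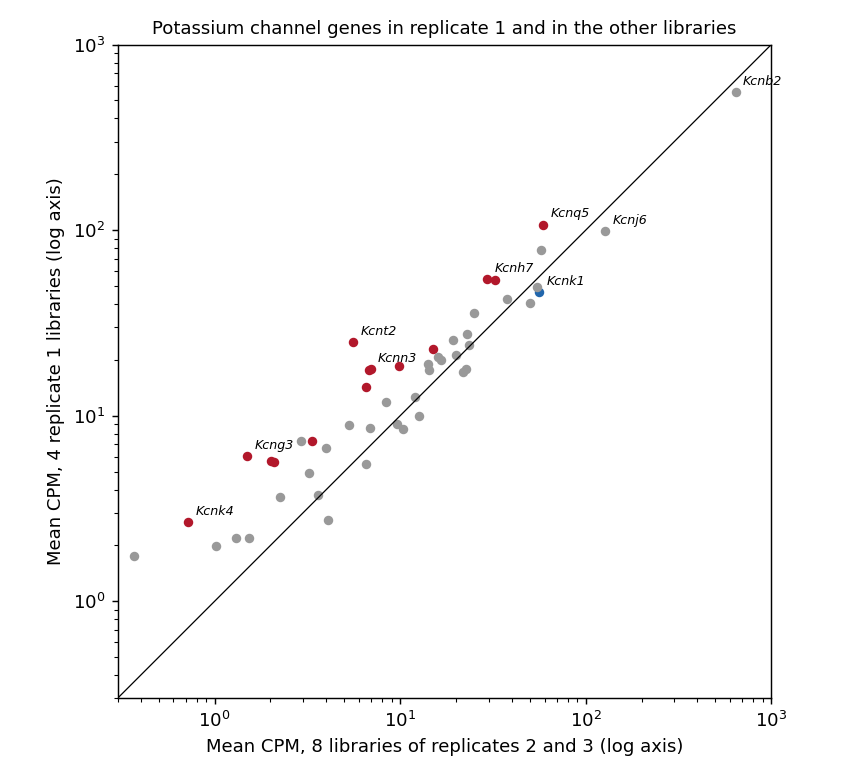
Mean level of 50 of the 55 tested potassium channel genes in the 4 replicate 1 libraries (vertical, CPM, log axis) against the 8 libraries of replicates 2 and 3 (horizontal, CPM, log axis), with the line of equality; red marks genes whose 4 replicate 1 values exceed the other 8, and blue those below. Kcns2, at 0 in the 8 libraries, is not drawn, and of the red genes Kcnt2 (ratio 4.45) and Kcng3 (4.04) lie farthest above the line.

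The first comparison asked what IAPP alone changed. Without the block no member passed, against 0.845% of all tested genes. With it 7 members rose and 2 fell (16.4%), against 7.83% of all tested genes, 3.78% higher and 4.04% lower. Those that rose were Kcnh1, Kcnd3, Kcnj6, Kcna6, Kcnk2, Kcnn3 and Kcns1, and Kcnk16 was among those that fell. The changes that rose ran from 0.51 for Kcnj6 to 1.21 for Kcnn3 on the log2 scale, apart from Kcns1. Whether a lower share of counts came from a smaller part of the cells expressing a gene or from less of its RNA per cell cannot be told apart in bulk samples.

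Kcnk16 encodes a tandem-pore-domain background channel that in mouse islets restrains calcium entry and insulin secretion. It was at 54.1, 72.2 and 57.9 CPM in control libraries, against 38.2, 38.8 and 39.4 CPM after IAPP. The 3 IAPP libraries were nearly equal and lay below every control library. The log2 fold change was -0.66 ± 0.14 (edgeR adjusted p = 0.0640), and -0.65 ± 0.13 with the block (edgeR adjusted p = 0.00134). Within replicates 1, 2 and 3 the log2 differences were -0.50, -0.89 and -0.55. RefSeq also lists a pseudogene, Kcnk16-ps1, whose reads could have been counted under Kcnk16, and how reads that match several places were treated is not given in the sources used here. Kcnk5, the tandem-pore-domain gene next to Kcnk16 in the GRCr8 gene order, had a change of 0.32 ± 0.58 (edgeR adjusted p = 1.00).

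Kcnh1 encodes an ether-a-go-go voltage-gated channel. It was at 17.5, 19.6 and 15.6 CPM in control libraries, against 26.97, 27.3 and 25.03 CPM after IAPP. All 3 IAPP values lay above all control values. The change was 0.59 ± 0.15 (edgeR adjusted p = 0.120) and 0.59 ± 0.16 with the block (edgeR adjusted p = 0.0183). The blocked call ended without control replicate 1 or 3 or IAPP replicate 1, 2 or 3.

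Kcnd3, a Shal gene of A-type current, was at 25.5, 13.7 and 14.9 CPM in control libraries, against 34.99, 30.4 and 31.4 CPM after IAPP. The groups did not overlap, although control replicate 1 was higher than the other control libraries. The change was 0.84 ± 0.18 with the block (edgeR adjusted p = 0.00366) and 0.83 ± 0.25 without it (edgeR adjusted p = 0.194). The blocked call ended without control replicate 2. The other Shal genes did not pass: Kcnd2 had a change of 0.24 ± 0.28 and Kcnd1 of -0.27 ± 0.36.

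Kcnj6 encodes an inward rectifier opened by G proteins, through which inhibitory receptors hyperpolarise the cell. It was at 84.95, 100 and 111 CPM in control libraries, against 108, 158 and 157 CPM after IAPP. The groups overlapped, because IAPP replicate 1 lay below control replicate 3, but within replicates 1, 2 and 3 the log2 differences were 0.34, 0.66 and 0.51, all positive. The change was 0.51 ± 0.11 with the block (edgeR adjusted p = 0.00295) and 0.52 ± 0.18 without it (edgeR adjusted p = 0.271). The other 6 tested inward rectifiers did not pass. In IAPP cells the family without Kcnj11 summed to 193 ± 19.0 CPM, against 141 ± 9.17 CPM in control (SD, n = 3). Of these sums Kcnj6 alone made up 141 ± 28.8 and 98.6 ± 12.9 CPM.

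Kcnk2, a background channel gated by stretch and lipids, was at 22.6, 19.2 and 13.9 CPM in control libraries, against 33.2, 27.95 and 25.3 CPM after IAPP, with no overlap. Its change with the block was 0.64 ± 0.15 (edgeR adjusted p = 0.00544), and that call ended without IAPP replicate 3. Kcnn3, a small-conductance channel opened by calcium, was at 14.5, 3.48 and 5.47 CPM in control libraries, against 26.2, 12.6 and 12.5 CPM after IAPP. Replicate 1 was the highest library in both groups, so the groups overlapped, and within replicates 1, 2 and 3 the log2 differences were 0.83, 1.75 and 1.14. The blocked change was 1.21 ± 0.22 (edgeR adjusted p = 0.000736).

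The Shaker gene Kcna6 had 36, 27 and 22 counts in control and 112, 33 and 26 counts in IAPP cells. IAPP replicate 1 was far above the other IAPP libraries. The blocked change was 0.99 ± 0.28 (edgeR adjusted p = 0.0296), and the call ended without control replicate 1 or 3 or IAPP replicate 1 or 2. Kcns1, a silent subunit that modifies Shab channels, had 5, 0 and 0 counts in control and 18, 7 and 6 in IAPP cells, and no fold change is given at these counts. Outside IAPP cells it had counts only in replicate 1, and it passed the filter on low counts only through replicate 1 libraries. Its blocked edgeR adjusted p was 0.0310, and the call ended without control replicate 1, 2 or 3 or IAPP replicate 2 or 3.

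Of the 55 tested members, 10 (18.2%) had an unadjusted p under 0.05 in this comparison, against 10% of all 16814 tested genes. DESeq2 called 2 members, Kcnh1 and Kcnk16, against 2.9% of all tested genes, and limma-voom none, against 0.874%. The median log2 fold change was 0.18 over the tested members and 0.05 over all tested genes, and 37 members had a positive and 18 a negative value. Without IAPP replicate 1 the median of the members turned to -0.12, with 21 of 57 positive. With the block it was 0.17 with all libraries and 0.06 without IAPP replicate 1, with 33 of 57 positive, so there it kept its sign. The IAPP and control libraries did not overlap in 14 members (25.5%), 9 higher and 5 lower, against 15.3% of all tested genes, 7.74% higher and 7.54% lower. The blocked count was 5 without control replicate 1 or IAPP replicate 2, and 6 without control replicate 2 or 3 or IAPP replicate 1 or 3. Over these 6 fits 3.61% to 5.62% of all tested genes were called. Kcnk16, Kcnj6 and Kcnn3 were called in all 12 leave-one-out fits with the block and in replicates 2 and 3 alone, where 4 of 49 tested members were called, Kcnd3 being the other. In replicates 2 and 3 alone 5.12% of all tested genes were called without the block and 5.27% with it.

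The 12 most abundant members included several that did not pass: Kcnb2 had a change of -0.13 ± 0.23, Kcnk1 of 0.05 ± 0.14 and Kcnh6 of -0.22 ± 0.15 after IAPP. Kcnh8 (0.17 ± 0.32), Kcnq5 (0.21 ± 0.37) and Kcnc1 (0.39 ± 0.15) did not pass either. Kcnc1, a fast delayed rectifier, was at 42.5, 29.2 and 37.5 CPM in control libraries, against 48.00, 46.9 and 48.2 CPM after IAPP. These values did not overlap, and the blocked edgeR adjusted p was 0.0581.

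**Figure D3:**
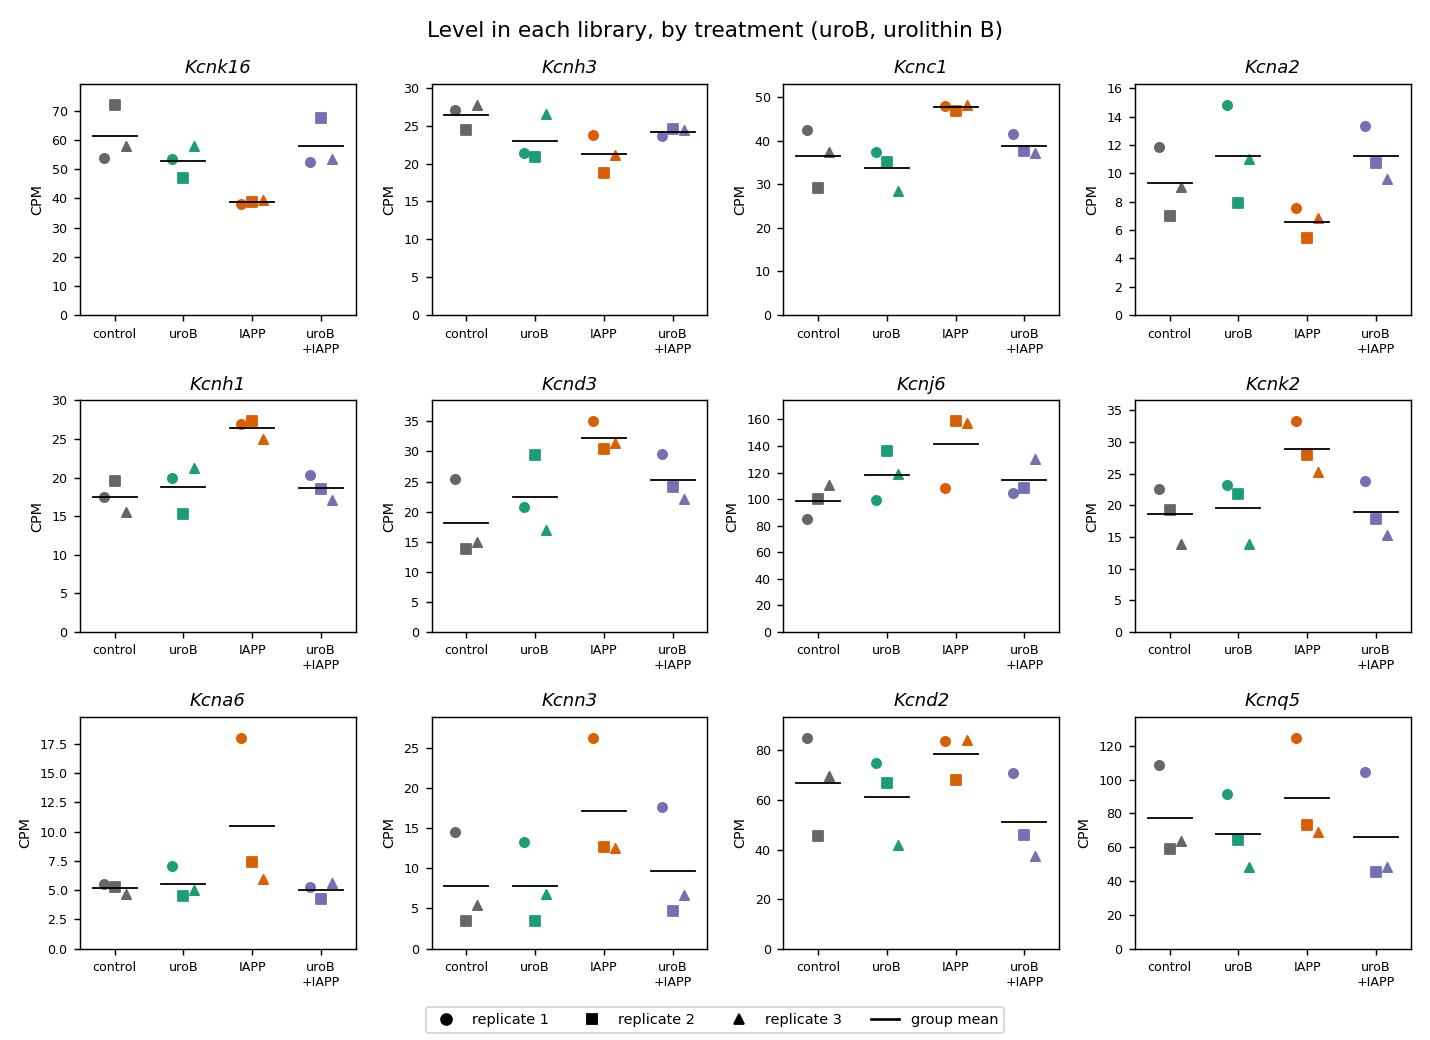
Level in each library (CPM, linear axes from 0) of 12 potassium channel genes in the 4 groups; symbols mark the replicate number and bars the group mean (n = 3). The IAPP points of Kcnk16 and Kcnh3 lie below the control points and those of Kcnh1, Kcnd3, Kcnc1, Kcnk2 and Kcna6 above them.

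The second comparison asked what urolithin B alone changed in unchallenged cells. No member passed, with or without the block, and likewise DESeq2 and limma-voom called none. Over all tested genes 0% were called without the block and 0.00595% with it. Replicates 2 and 3 of urolithin B differed more from each other than those of the other groups. Without urolithin B replicate 2 the blocked share of all genes was 0.00574%. At an unadjusted p under 0.05 there was no member, against 0.898% of all tested genes, and in no member were the libraries without overlap, against 4.48%. The members with the smallest p were Kcnk16 at 52.9 ± 5.48 CPM against 61.4 ± 9.57 CPM in control (SD, n = 3, log2 fold change -0.21 ± 0.14), Kcnh3, an ether-a-go-go gene (-0.20 ± 0.14), and Kcnj6 (0.26 ± 0.18), each with edgeR adjusted p = 1.00. Kcnk16 was at 53.6, 47.1 and 58.01 CPM, and these values overlapped those of control. Kcnh3 was at 27.03, 24.4 and 27.8 CPM in control libraries, at 21.4, 20.8 and 26.6 CPM after urolithin B and at 23.8, 18.7 and 21.2 CPM after IAPP. The urolithin B values overlapped the control values, and the IAPP values lay below them.

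The third comparison asked what urolithin B changed in cells then challenged with IAPP. Without the block no member passed, against 0.577% of all tested genes. With it 8 of 55 members (14.5%) passed, against 5.24% of all tested genes, 2.51% higher and 2.73% lower. Higher in urolithin B + IAPP than in IAPP cells were 3 members, Kcnk16 and Kcna2 among them, and 5 were lower, Kcna6, Kcnk2, Kcnd2, Kcnn3 and Kcnq5. The first comparison uses the same IAPP libraries, so the values of both are not independent.

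Kcnk16 was at 52.4, 67.8 and 53.7 CPM in urolithin B + IAPP cells. All 3 values lay above the 3 IAPP values. The change against IAPP was 0.58 ± 0.14 (edgeR adjusted p = 0.153), and 0.57 ± 0.13 with the block (edgeR adjusted p = 0.00667). Within replicates 1, 2 and 3 the log2 differences were 0.45, 0.80 and 0.44. The blocked call ended without IAPP replicate 2 or urolithin B + IAPP replicate 2.

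Kcnq5 was at 125, 73.04 and 69.2 CPM in IAPP and 104, 45.3 and 48.6 CPM in urolithin B + IAPP cells. Replicate 1 was the highest in both, so the groups overlapped, and the blocked change was -0.46 ± 0.12 (edgeR adjusted p = 0.0194). Leaving out IAPP replicate 1, 2 or 3 or urolithin B + IAPP replicate 2 or 3 ended that call.

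The Shaker genes Kcna2 and Kcna6 went opposite ways. Kcna2, a delayed rectifier subunit, was at 7.54, 5.41 and 6.83 CPM in IAPP and 13.3, 10.7 and 9.57 CPM in urolithin B + IAPP cells. The groups did not overlap, and the blocked change was 0.77 ± 0.22 (edgeR adjusted p = 0.0385). Leaving out IAPP replicate 1, 2 or 3 or urolithin B + IAPP replicate 1, 2 or 3 ended that call. Kcna6 had 33, 20 and 33 counts in urolithin B + IAPP cells, and its blocked change was -1.01 ± 0.28 (edgeR adjusted p = 0.0368). That call ended without control replicate 3, IAPP replicate 1 or 2 or urolithin B + IAPP replicate 1 or 2. Within replicates 1, 2 and 3 its log2 differences were -1.71, -0.78 and -0.06.

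Kcnk2 was at 23.8, 17.8 and 15.2 CPM in urolithin B + IAPP cells, below all IAPP values, with a blocked change of -0.61 ± 0.14 (edgeR adjusted p = 0.0118). That call ended without IAPP replicate 3 or urolithin B + IAPP replicate 2 or 3. Kcnn3 was at 17.6, 4.62 and 6.67 CPM, with a blocked change of -0.90 ± 0.21 (edgeR adjusted p = 0.0111). That call ended without IAPP replicate 2 or urolithin B + IAPP replicate 2 or 3. Kcnd2 was at 83.6, 68.1 and 84.4 CPM in IAPP and 70.7, 45.95 and 37.3 CPM in urolithin B + IAPP cells. Its groups overlapped, and the blocked change was -0.65 ± 0.17 (edgeR adjusted p = 0.0188). Leaving out IAPP replicate 2 or 3 or urolithin B + IAPP replicate 2 or 3 ended that call. RefSeq also lists a gene named Kcnd2l1, whose reads could have been counted under Kcnd2.

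Kcnh1 was at 20.3, 18.5 and 17.1 CPM in urolithin B + IAPP cells, below all IAPP values, but its blocked change of -0.50 ± 0.16 did not pass (edgeR adjusted p = 0.0580). Kcnd3 was at 29.6, 24.1 and 22.1 CPM, also below all IAPP values. Kcnj6 was at 105, 108 and 130 CPM, which overlapped them. Their changes against IAPP, -0.35 ± 0.25 and -0.30 ± 0.18, did not pass with or without the block.

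Of the 55 tested members, 9 (16.4%) had an unadjusted p under 0.05, against 8.5% of all tested genes. DESeq2 called 1 member, Kcnk16, against 1.83% of all tested genes, and limma-voom none, against 0.601%. The median log2 fold change was -0.23 over the tested members and -0.02 over all tested genes, and 20 members had a positive and 35 a negative value. Without IAPP replicate 1 the median of the members turned to 0.11, with 32 of 57 positive. With the block it was -0.22 with all libraries and -0.08 without IAPP replicate 1, with 26 of 57 positive, so there it kept its sign. The libraries did not overlap in 12 members (21.8%), 5 higher and 7 lower, against 13.4% of all tested genes, 6.58% higher and 6.84% lower. The blocked count rested on single libraries: it was 0 without urolithin B + IAPP replicate 2, 1 without IAPP replicate 2, 2 without urolithin B + IAPP replicate 3, 4 without IAPP replicate 3, and 5 without IAPP replicate 1 or urolithin B + IAPP replicate 1. Over these 6 fits 2.09% to 3.52% of all tested genes were called. In replicates 2 and 3 alone with the block 4 of 49 tested members were called, Kcnk16, Kcnd2, Kcnn3 and Kcnq5, against 2.85% of all tested genes. Without the block 3 were called there, against 2.84%.

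**Figure D4:**
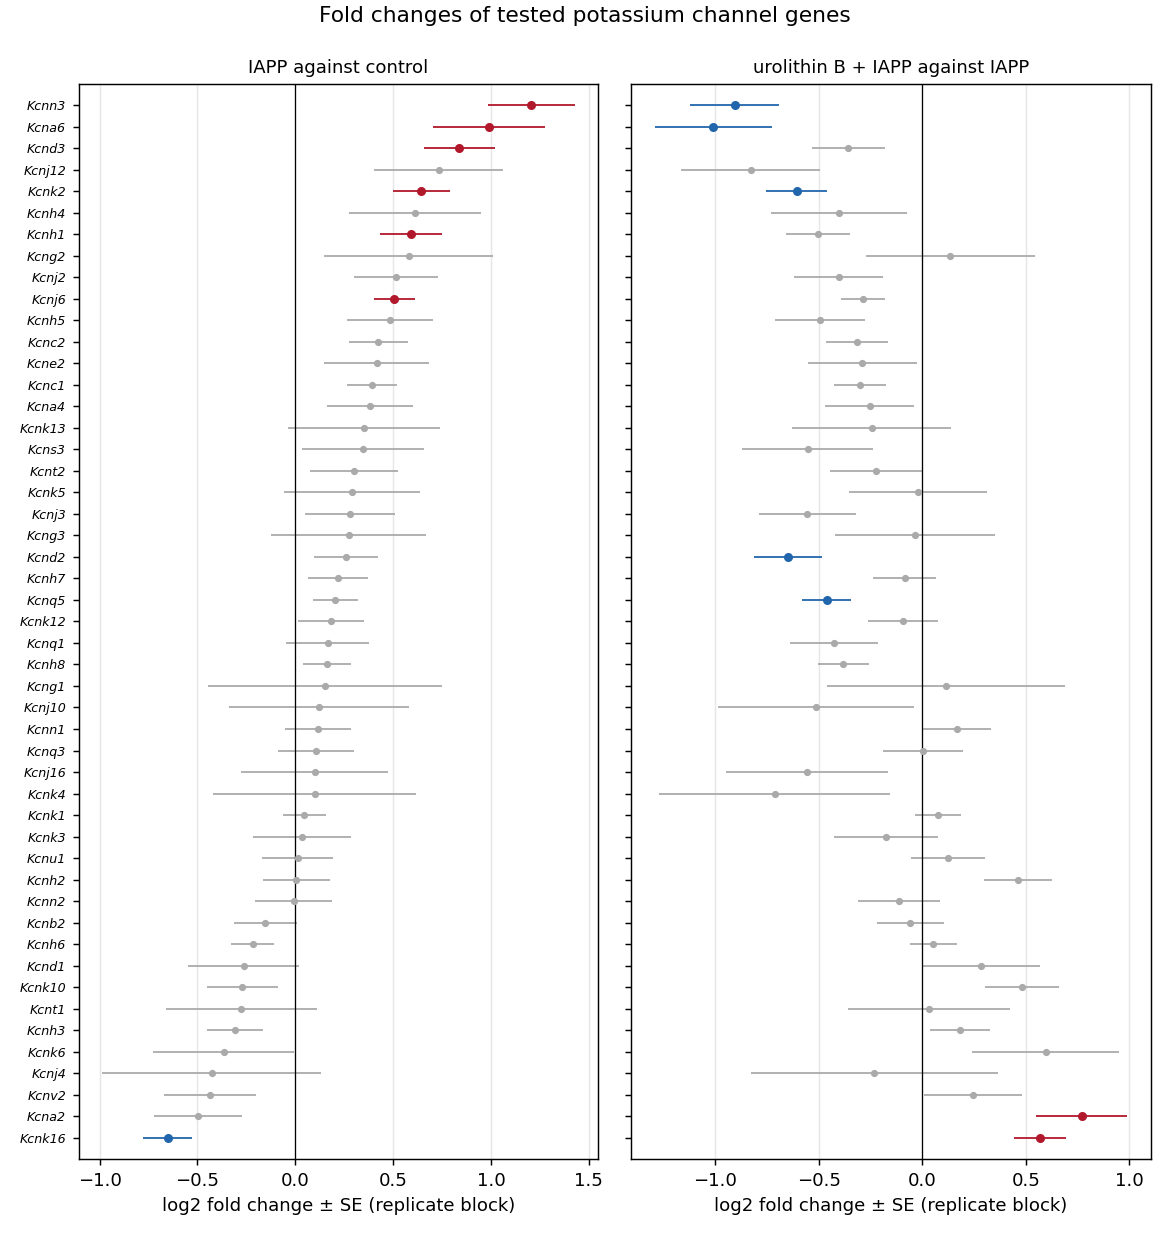
Log2 fold change ± SE with the replicate block for 49 of the 55 tested potassium channel genes in IAPP against control (left) and urolithin B + IAPP against IAPP (right); red and blue mark genes called higher and lower at an adjusted p under 0.05, and grey those not called. Both panels use the same IAPP libraries. Kcns1 and Kcns2, at 0 in replicates 2 and 3 of control and of urolithin B + IAPP, are not drawn, although Kcns1 was called higher in IAPP against control. Kcnk16 is called lower on the left and higher on the right.

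In urolithin B + IAPP against control no member passed with or without the block, and neither did any in DESeq2 or limma-voom. At an unadjusted p under 0.05 there was 1 member, Kcnh2 (0.47 ± 0.21, edgeR adjusted p = 1.00), against 2.44% of all tested genes. Libraries did not overlap in 3 members, with Kcnh2 higher and Kcnb2 lower among them, against 7.4%. Over all tested genes 0% were called without the block and 0.0714% with it. Kcnh2, a rapid delayed rectifier of the ether-a-go-go family, was at 16.2, 20.9 and 17.7 CPM in control and 22.2, 25.6 and 27.9 CPM in urolithin B + IAPP cells. Against urolithin B alone the combined treatment gave no call among the members with or without the block, nor in DESeq2 or limma-voom. Of all tested genes 0% were called without the block and 0.0119% with it. No member had an unadjusted p under 0.05, against 1.67% of all tested genes, and no member had libraries without overlap, against 5.43%.

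The interaction compares the IAPP effect with and without urolithin B. Without the block no member passed, DESeq2 and limma-voom made no call either, and 4 had an unadjusted p under 0.05, against 5.4% of all tested genes. With the block 1 of 55 members (1.82%) passed, Kcnk16, at 0.78 ± 0.18 on the log2 scale (edgeR adjusted p = 0.0176, and 0.362 without the block). Over all tested genes 0.0297% were called without the block and 1.63% with it (0.613% higher). The blocked call ended without control replicate 2, IAPP replicate 2 or urolithin B + IAPP replicate 2. None of the other 3 passed with the block, Kcnh1 and Kcnj6 among them, with blocked edgeR adjusted p-values of 0.205 and 0.0651. Without the block their changes were -0.60 ± 0.22 and -0.56 ± 0.25.

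The 80 members held 9 pairs of adjacent protein-coding genes: Kcnj16 and Kcnj2, Kcnj6 and Kcnj15, Kcnj9 and Kcnj10, Kcnk16 and Kcnk5, Kcna3 and Kcna2, Kcna2 and Kcna10, Kcna5 and Kcna1, Kcna1 and Kcna6, and Kcnj5 and Kcnj1. In none of them were both genes called with the block in either IAPP comparison. In 7 of the 9 pairs at least 1 gene was not tested.

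Genes that work with these channels were read from 2 lists. Of 22 genes in the list of channel partners and Slo1 (Kcnma1), 16 were tested. None passed in IAPP against control without the block, against 0.845% of all tested genes. In urolithin B + IAPP against IAPP 1 partner was called without the block, against 0.577% of all tested genes. This was Kcnmb2, which encodes an inactivating beta subunit of the large-conductance calcium-activated channel. It was at 72.3, 84.98 and 88.6 CPM in control, 81.5, 112 and 65.9 CPM in urolithin B, 104, 128 and 158 CPM in IAPP and 63.9, 60.9 and 57.96 CPM in urolithin B + IAPP cells. The urolithin B + IAPP values were the lowest of all 4 groups, and the change against IAPP was -1.09 ± 0.20 (edgeR adjusted p = 0.0336). In IAPP against control Kcnmb2 rose with the block, by 0.66 ± 0.14 (edgeR adjusted p = 0.00321), and Kcnip4, which encodes a calcium-binding partner of Shal channels, fell by 0.50 (edgeR adjusted p = 0.0126). These were the only blocked calls there among the 16 partners, 1 higher and 1 lower, against 3.78% and 4.04% of all tested genes. Kcnma1 itself, the pore of that channel, had a change of -0.13 ± 0.14.

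In the list of the ATP-sensitive channel and other excitability genes, 39 of 42 were tested. In IAPP against control 0 rose and 1 fell without the block, against 0.845% of all tested genes called. The 1 was Cacnb3, a calcium channel beta subunit, at -0.64 ± 0.13 (edgeR adjusted p = 0.0432). With the block 3 rose and 7 fell, against 3.78% of all tested genes higher and 4.04% lower. In urolithin B + IAPP against IAPP 0 rose and 1 fell without the block, against 0.577% of all tested genes called. The 1 was the sodium channel gene Scn8a at -0.53 ± 0.10 (edgeR adjusted p = 0.0440). With the block 6 rose and 3 fell, against 2.51% higher and 2.73% lower. The median log2 fold changes of this list were -0.11 and -0.04, and those of the partner list -0.07 and 0.04. Of the ATP-sensitive channel genes, Kcnj11 at 154 ± 14.1 CPM in untreated against 160 ± 34.00 CPM in IAPP cells and Abcc8 at 131 ± 21.6 CPM and 136 ± 37.6 CPM (SD, n = 3), had changes of 0.06 ± 0.17 and 0.06 ± 0.24 and did not pass. For scale, 9 of 10 genes of a p53 response list rose in IAPP against control and 9 fell in urolithin B + IAPP against IAPP without the block, with medians of 2.05 and -1.77.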

How the data were processed

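Per the labels' protocols, RNA from 12 libraries was sequenced with the QuantSeq 3prime FWD kit. FastQC, Bowtie2 and SAMtools are named, without versions, per the submitters' processing notes. Not given in the sources used here are the read counter, genome build and annotation. The deposited values are raw read counts from the authors per gene in 1 table, stated to have been corrected after its first release. Depth was 4828003 to 6681455 counts per library.

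Counts were tested over all genes with the quasi-likelihood test of edgeR 4.0.16 (R 4.3.3), TMM scaling, filterByExpr (16814 genes kept), 1 fit of 12 libraries, 6 contrasts and Benjamini-Hochberg adjustment at 0.05. Fold changes are log2 with their SE. Whether replicates were separate cultures is not stated beyond the word biological, and the p-values therefore reflect library-to-library spread that may be technical. DESeq2 1.42.0 and limma 3.58.1 (voom) were alternatives. The code was tested on simulated data. Log2 differences within a replicate number are of log2 CPM with a prior count of 2.

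Deviations from group means correlated between all 18 same-number pairs of libraries, with r from 0.444 to 0.888. The rule for giving blocked values (every pair over 0.1) was met, but an offset shared by the replicate 1 libraries can meet it alone. Without replicate 1 the correlations ran from -0.0581 to 0.0213. Pairing is thus shown only as replicate 1 against the rest. Differences within the other replicate numbers are given by label, and those libraries are not shown to be matched across groups. The smallest chi-square per degree of freedom between libraries of a group was 3.71, so none counted as a repeat.

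The members and lists were chosen with earlier results of these data known. Named were members called without the block in any contrast, members called with it in the 2 IAPP comparisons of the report, the 12 most abundant members, and those with the smallest p (5, 5 and 3 per comparison). Kcnd1, Kcng3, Kcnh2, Kcnk5, Kcnq1, Kcns2 and Kcnt2 were added after their values were seen. The RefSeq gene table of GRCr8, used for gene order, held all 80 symbols. Some members are counted but not reported here by name. Promoters are RefSeq sequences of that build.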

Additional observations from a re-analysis of the deposited data

Results flagged for a closer look

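The IAPP effect on Kcnk16, the islet background channel gene, differed with and without urolithin B by the interaction test with the replicate block, at 0.78 ± 0.18 on the log2 scale (edgeR adjusted p = 0.0176). This was 1 call among 55 tested members (1.82%), near the 1.63% of all tested genes called in the same fit. Without the block the value was 0.79 ± 0.20 and did not pass (edgeR adjusted p = 0.362). Within the replicate numbers the log2 differences of Kcnk16 between IAPP and control cells were -0.50, -0.89 and -0.55. All are negative under any numbering, because the 2 groups did not overlap. The interaction within each number was 0.47, 1.41 and 0.44. The blocked call was kept in 9 of 12 leave-one-out fits and ended without control replicate 2, IAPP replicate 2 or urolithin B + IAPP replicate 2, and without replicate 1 of all groups. With 3 libraries per group no library was examined as an outlier.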

How the results depend on the processing

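Without the replicate block 0 members were called in each of the 6 comparisons, and library size alone, RLE size factors, limma-voom, no filter, a filter of 1 CPM in at least 3 libraries (18716 genes kept), the 2 groups alone and leaving out each library in turn also gave 0. In IAPP against control the replicate block gave 9 members, DESeq2 2, replicates 2 and 3 alone 4, and the block with replicate 1 left out 4, against 7.83%, 2.9%, 5.12% and 5.27% of all tested genes. Leave-one-out counts ran from 0 to 11, and with the block the share of all genes ran from 3.61% to 12.1%, the highest without urolithin B replicate 2. In urolithin B + IAPP against IAPP the same settings gave 8, 1, 3 and 4 members, against 5.24%, 1.83%, 2.84% and 2.85% of all tested genes. Leave-one-out counts ran from 0 to 12, and with the block the share of all genes ran from 2.09% to 9.6%, again highest without urolithin B replicate 2. In the interaction the block gave 1 member and leave-one-out counts ran from 0 to 2, and all leave-one-out counts above 0 came from fits with the block, which were added after seeing the data. The block changed no call in the other 3 comparisons. Of the named fold changes 22 were followed across the planned settings, and none of these turned its sign. Other named changes, such as that of Kcnb2 after IAPP, were not followed. Of the 22 values 18 passed with the block, 3 with DESeq2, and 7 of 21 with replicate 1 left out. The 22 were picked by their calls, with the block included, or by smallest p. The 18 therefore follow from that choice. Detection at 10 counts over the 12 libraries left 67 of the 74 members detected. Most calls depend on the replicate block, and the cause was not tested. Members under about 5 CPM rest on few counts.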
